A study of Schizosaccharomyces pombe with 6 samples.

Results

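The nuclear genes of oxidative phosphorylation were followed in non-dividing fission yeast, Schizosaccharomyces pombe, after 6 days in stationary phase. They were chosen by name from the 6952 genes of the count table. A nuclear gene was taken when its standard name was sdh1 to sdh4, rip1, cyt1 or cyc1, or was cox, qcr or atp followed by a number, and 12 named assembly factors were left out. The rule gave 39 genes, with 4 in complex II, 9 in complex III, cytochrome c itself, 10 in complex IV and 15 in complex V. Of these, 35 encode subunits, and 4 are annotated as other proteins that the name rule also caught. The 4 are the assembly proteins Cox14, Cox16 and Atp25 and the peptidase Atp23. The gene called sdh4 here carries the symbol tim18 in RefSeq, with sdh4 as a synonym, because its protein anchors succinate dehydrogenase and also belongs to a protein import complex.

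RNA was sequenced from 3 cultures of aal1-pOE and 3 of evc, all in the 972h-/leu1-32 strain background and aged in the minimal medium EMMG. The aal1-pOE cells carried a plasmid that expressed the long non-coding RNA aal1 from the thiamine-repressible P41nmt1 promoter, and the evc cells carried an empty vector. The comparison addressed which transcripts differ in stationary phase when the RNA aal1 is made in excess. The plasmid gives ectopic RNA and says nothing of aal1 at its own locus.

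Oxidative phosphorylation passes electrons from succinate and NADH through a chain in the inner mitochondrial membrane and uses the proton gradient that this builds to make ATP. Fission yeast has no proton-pumping complex I, so electrons enter through succinate dehydrogenase (complex II) and through single-protein dehydrogenases, and move by ubiquinone to the cytochrome bc1 complex (complex III), by cytochrome c to cytochrome c oxidase (complex IV), and then to oxygen. ATP synthase (complex V) lets the protons back in. The complexes are mosaics, since a few core subunits are encoded in the mitochondrial genome and the rest, measured here, in the nucleus. Complex II is the exception, as all of its subunits come from nuclear genes.

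Libraries held 5839863 to 13164975 counts. The aal1 gene itself had 54, 141 and 58 counts in aal1-pOE against 4, 2 and 4 in evc, with a log2 fold change of 3.39 ± 0.58 (SE; edgeR adjusted p = 0.0106), so the libraries matched their labels. Libraries stood apart in both groups. The composition factor of aal1-pOE replicate 2 (TMM, a scaling that offsets a few abundant transcripts taking up the reads) was 1.80, against 0.763 to 1.08 in the other 5 libraries, and this library was also the deepest. Chi-square per degree of freedom between the counts of 2 libraries was 287 and 263 for it against the other aal1-pOE libraries and 20.3 between those. For evc replicate 1 it was 71.6 and 72.5 against the other evc libraries and 5.34 between those. Some results that rest on aal1-pOE replicate 2 are given with and without it, and others with it alone. The counts of calls are also given without it and evc replicate 1. Levels are counts per 1000000 counts of the scaled library (CPM after TMM scaling) unless library totals are named.

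Among the nuclear oxidative phosphorylation genes a single one, sdh3, passed the test, and it fell. Sdh3 is the cytochrome b subunit that holds succinate dehydrogenase in the membrane. All 39 genes passed the filter on low counts. None rose, 1 fell and 38 were not called at the adjusted p of 0.05 in the edgeR quasi-likelihood test over all 5823 genes tested. DESeq2 and limma-voom each also called 0 that rose and 1 that fell, and 2 of the genes, sdh3 and atp20, had an unadjusted p under 0.05 (5.13%, beside 27.2% of all genes tested). The called share was 2.56% of the 39 genes, beside 5.99% of all genes tested, of which 4.64% fell and 1.36% rose. The count of respiratory genes called was thus not above the background of the transcriptome.

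With TMM scaling the changes were small around 0. The median log2 fold change of the 39 genes was -0.08, beside 0.08 over all genes tested, with 18 genes above 0 and 21 below. In 32 of the 39 the change was under 0.5 on the log2 scale in size, beside 2797 of the 5823 genes tested. Under TMM scaling these data bound the change of many genes but not of all. The 95% interval of the log2 fold change lay within a 2-fold change in either direction for 24 genes and reached beyond it for 15. Of the 5823 genes tested, it lay within for 1686. These intervals take the TMM factors as given and leave out the uncertainty of the scaling. With library totals alone the median of the 39 genes was 0.60. The median SE was 0.27, beside 0.35 over all genes tested. The part of this difference in precision in these counts was not tested.

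**Figure D1:**
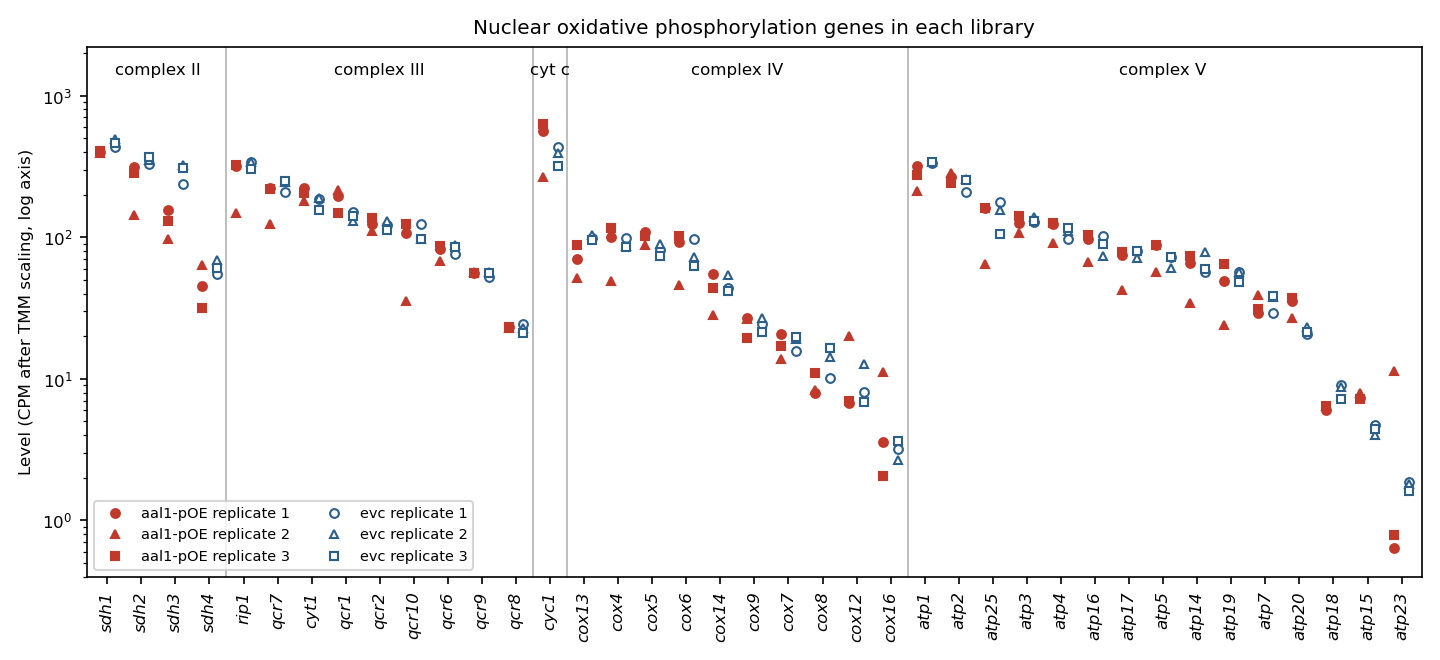
Level of each of the 39 genes in each of the 6 libraries, in CPM after TMM scaling on a log axis, ordered within each complex by the mean in evc. Filled red marks are aal1-pOE and open blue marks evc, and the shape gives the replicate. The 3 red marks of sdh3 (96.5 to 154.4 CPM) lie below its 3 blue marks (235.5 to 324.9 CPM), and the red triangle of aal1-pOE replicate 2 is the lowest mark in 23 of the 39 genes.

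Succinate dehydrogenase links the TCA cycle to the respiratory chain. Sdh1 is the flavoprotein that oxidises succinate, Sdh2 carries the electrons over iron-sulfur clusters, and Sdh3 and Sdh4 form the membrane anchor where ubiquinone is reduced. In other work on fission yeast, the CCAAT-binding Php complex drives respiratory genes and its Php4 subunit turns iron-using genes, succinate dehydrogenase among them, down when iron is short. The 150 bases before the annotated starts of sdh1, sdh3 and sdh4 are printed because this is the complex with the called gene and because each of these windows holds the CCAAT letters. They come from RefSeq, assembly ASM294v3, 5′ to 3′ on the strand of the gene, with CCAAT or its reverse complement ATTGG in capitals. The windows are chrI:3798463-3798612 (minus strand) for sdh1, chrIII:136649-136798 (minus) for sdh3 and chrII:2035910-2036059 (plus) for sdh4.
sdh1: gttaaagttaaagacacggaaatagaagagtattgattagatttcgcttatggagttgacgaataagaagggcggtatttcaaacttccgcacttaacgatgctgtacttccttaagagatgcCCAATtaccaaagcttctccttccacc
sdh3: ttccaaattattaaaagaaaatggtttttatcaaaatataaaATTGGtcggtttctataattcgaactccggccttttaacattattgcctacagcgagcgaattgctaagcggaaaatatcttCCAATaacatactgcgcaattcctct
sdh4: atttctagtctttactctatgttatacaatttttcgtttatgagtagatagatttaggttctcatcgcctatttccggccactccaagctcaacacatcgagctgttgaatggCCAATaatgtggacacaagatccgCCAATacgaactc

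Within 250 bases before the start, searched on both strands, sdh3 held the 5 letters 3 times, beginning 226, 108 and 26 bases before the start. The sdh1 gene held them at 162 and 27 bases, and sdh4 at 37 and 13. Over the members 21 of 38 windows (55.3%) held at least 1 match, beside 35.3% of the 4910 protein-coding genes tested that gave a window of this length. The share was 77.8% in complex III, 46.7% in complex V and 30.0% in complex IV. At least 2 matches stood in 18.4% of these members and 7.39% of all windows. The cytochrome c gene cyc1 held 3, at 107, 102 and 65 bases, and was not called over all 6 libraries. Whether the letters bear on any change was not tested.

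The sdh3 gene (SPCC330.12c) has its coding sequence in 1 part and lies on the minus strand of chromosome III, from 135724 to 136648 in ASM294v3. Its counts were 1461, 2280 and 827 for the aal1-pOE replicates 1, 2 and 3, against 1396, 1448 and 1523 for those of evc. After scaling its level was 154.4, 96.5 and 130.4 CPM in aal1-pOE against 235.5, 324.9 and 306.5 CPM in evc. The highest aal1-pOE library lay below the lowest evc library. The mean was 127.1 ± 29.1 CPM for the aal1-pOE libraries and 289.0 ± 47.2 CPM for the evc libraries (SD, n = 3 each). The log2 fold change was -1.19 ± 0.26 (SE; 95% interval -1.77 to -0.60; edgeR adjusted p = 0.0295). An upstream non-coding gene on the same strand, SPNCRNA.1112, overlaps the first 14 nt of sdh3 and had 1, 18 and 0 counts in aal1-pOE against 6, 6 and 8 in evc. How many reads of sdh3 were left out at this overlap was not tested.

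The log2 fold change of sdh3 was below 0 in all 17 alternatives, from -1.34 to -0.53, and the gene was called in 12 of them. Scaling by library totals alone gave a log2 fold change of -0.53 (edgeR adjusted p = 0.0776), while the median of all genes tested moved from 0.08 to 0.80 under that scaling. The call was also lost without aal1-pOE replicate 1 (edgeR adjusted p = 0.0639), without aal1-pOE replicate 3 (0.0528), without evc replicate 2 (0.171) and without evc replicate 3 (0.158), with fold changes of -1.34, -1.20, -1.10 and -1.13. The call remained when aal1-pOE replicate 2 was left out, at a fold change of -1.0 (edgeR adjusted p = 0.0158).

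A ratio of counts of 2 genes within a library depends on no scaling. The counts of sdh3 over those of sdh1 were 0.387, 0.245 and 0.322 in aal1-pOE against 0.548, 0.663 and 0.666 in evc. The ratio was thus lower in every aal1-pOE library than in any evc library, with means of 0.318 ± 0.0710 and 0.626 ± 0.0673 (SD, n = 3 each). Relative to sdh2 it was 0.492, 0.675 and 0.458 in aal1-pOE against 0.717, 0.925 and 0.838 in evc, and again the groups did not overlap. Of all counts on the 39 genes, sdh3 took 3.24, 2.89 and 2.75% in aal1-pOE against 5.09, 6.72 and 6.77% in evc. Relative to sdh4 the ratio was 3.41, 1.53 and 4.11 in aal1-pOE against 4.31, 4.70 and 5.03 in evc. The share of the cytochrome b anchor, within its complex and within the chain, was lower in all 3 aal1-pOE libraries than in any evc library. These ratios were examined because sdh3 had been called, and no test was made on them.

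**Figure D2:**
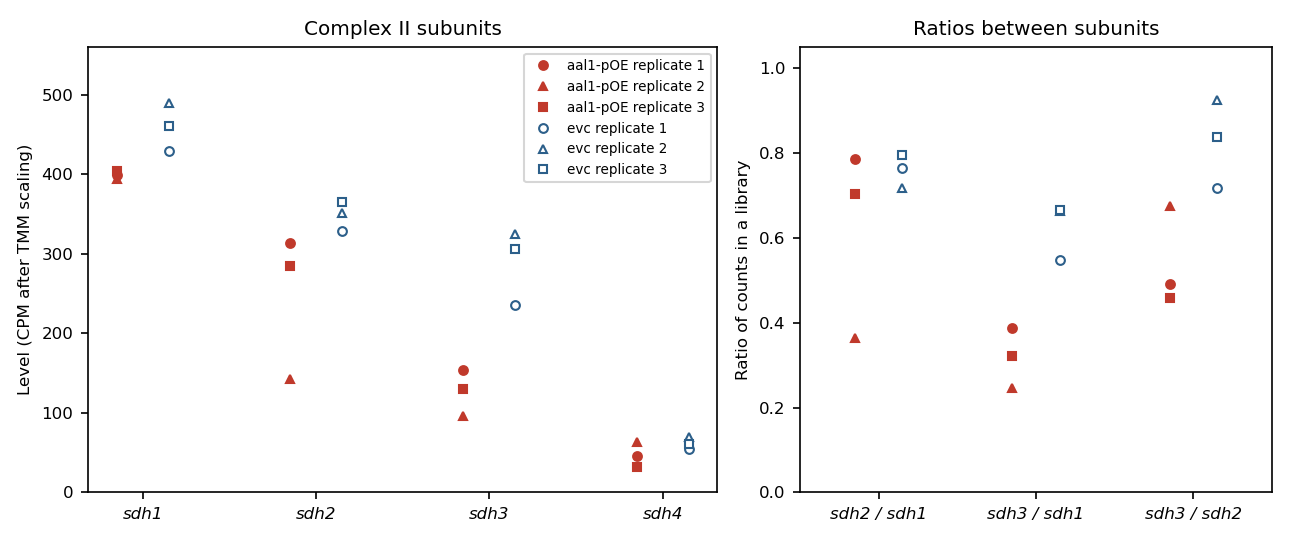
Left, level of the 4 complex II genes in each library, in CPM after TMM scaling on an axis from 0. Right, ratios of counts between subunits in each library, which need no scaling. Filled red marks are aal1-pOE and open blue marks evc. The groups are apart for sdh3 and for both sdh3 ratios (0.245 to 0.387 against 0.548 to 0.666 for sdh3 over sdh1), while the ratio of sdh2 to sdh1 overlaps between the groups and is low in aal1-pOE replicate 2 alone.

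The other 3 subunits of the complex were not called. The level of sdh1 was 398.8, 393.5 and 404.3 CPM in aal1-pOE against 429.7, 489.8 and 460.2 CPM in evc. The groups did not overlap, by a small margin, and the log2 fold change was -0.21 ± 0.24 (SE; edgeR adjusted p = 0.581). The level of sdh2 was 313.8, 143.0 and 284.4 CPM in aal1-pOE against 328.3, 351.1 and 365.7 CPM in evc. Here too every aal1-pOE library was lower, but most of the difference came from replicate 2. The log2 fold change was -0.50 ± 0.31 (SE; edgeR adjusted p = 0.319), and without that library it was -0.20 (adjusted p = 0.361). The level of sdh4 was 45.3, 63.3 and 31.7 CPM in aal1-pOE against 54.7, 69.1 and 61.0 CPM in evc, and these groups overlapped (log2 fold change -0.39 ± 0.27 SE; edgeR adjusted p = 0.358). Without aal1-pOE replicate 2, the aal1-pOE library with the most sdh4, its log2 fold change was -0.65 (adjusted p = 0.0788). All 4 complex II genes had a value below 0 and their median was -0.44, the lowest of the complexes. With library totals alone, sdh1, sdh2 and sdh4 turned to 0.51, 0.10 and 0.42, and only sdh3 stayed below 0.

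Complex III moves electrons from ubiquinol to cytochrome c through the iron-sulfur protein Rip1 and cytochrome c1, encoded by cyt1. Of its 9 genes, 0 were called. The level of rip1 was 315.8, 148.3 and 324.6 CPM in aal1-pOE against 340.4, 337.0 and 302.1 CPM in evc. Only aal1-pOE replicate 2 lay outside the evc range, and the log2 fold change was -0.31 ± 0.32 (SE; edgeR adjusted p = 0.528). Without that library it was -0.01 (adjusted p = 0.963). The level of cyt1 was 222.6, 180.6 and 204.4 CPM in aal1-pOE against 185.9, 187.6 and 155.8 CPM in evc. The groups overlapped through replicate 2, and the log2 fold change was 0.20 ± 0.22 (SE; edgeR adjusted p = 0.552). Counts of rip1 over counts of cyt1 were 1.42, 0.821 and 1.59 in aal1-pOE against 1.83, 1.80 and 1.94 in evc, without overlap.

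The extremes of complex III were qcr7 and qcr1. Qcr7 is a small subunit, and Qcr1 is a core protein that in the annotation is also the beta subunit of the peptidase that trims imported mitochondrial proteins. The level of qcr7 was 222.5, 124.8 and 219.4 CPM in aal1-pOE against 208.9, 247.0 and 248.5 CPM in evc, which overlapped (log2 fold change -0.31 ± 0.27 SE; edgeR adjusted p = 0.458). Its fold change without aal1-pOE replicate 2 was -0.07 (adjusted p = 0.767). The level of qcr1 was 194.6, 215.5 and 147.7 CPM in aal1-pOE against 150.1, 129.9 and 141.9 CPM in evc. Only aal1-pOE replicate 3 fell within the range of evc, and the log2 fold change was 0.40 ± 0.23 (SE; edgeR adjusted p = 0.268). The small subunits qcr8 and qcr9 were the steadiest of the complex, at 22.7 to 23.2 and 56.0 to 56.4 CPM in the 3 aal1-pOE libraries and 20.9 to 24.3 and 52.6 to 56.5 CPM in evc. The median of the complex was 0.02, and with TMM scaling the 95% interval lay within a 2-fold change for 7 of the 9 genes. Of the remaining subunits, qcr2, qcr6 and qcr10 had values of 0.02, -0.08 and -0.26, all with overlapping groups.

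Cytochrome c, the soluble carrier between complexes III and IV, was, with sdh3, at the top of the group per length in evc. The level of cyc1 was 565.1, 265.0 and 632.7 CPM in aal1-pOE against 436.1, 394.0 and 320.2 CPM in evc. Replicates 1 and 3 of aal1-pOE were above every evc library and replicate 2 was below them all. The log2 fold change was 0.35 ± 0.35 (SE; edgeR adjusted p = 0.525), and without aal1-pOE replicate 2 it was 0.66 ± 0.17 (SE; adjusted p = 0.0437), which passed the test.

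Complex IV reduces oxygen, with its catalytic core encoded in the mitochondrial genome and the nuclear subunits around it. None of its 10 nuclear genes was called, and the median log2 fold change was -0.01. The level of cox4 was 99.96, 49.1 and 116.8 CPM in aal1-pOE against 98.4, 86.8 and 84.5 CPM in evc. Here also replicates 1 and 3 were above the evc libraries and replicate 2 below them. The log2 fold change was -0.02 ± 0.31 (SE; edgeR adjusted p = 0.963), and without replicate 2 it was 0.28 (adjusted p = 0.241). The lowest value was that of cox8, a small membrane subunit, with 7.93, 8.34 and 11.03 CPM in aal1-pOE against 10.1, 14.4 and 16.5 CPM in evc. Its groups overlapped (log2 fold change -0.59 ± 0.38 SE; edgeR adjusted p = 0.324). The highest was that of cox16, an assembly protein of low level, with 3.59, 11.2 and 2.05 CPM in aal1-pOE against 3.21, 2.69 and 3.62 CPM in evc. Its log2 fold change of 0.84 ± 0.67 (SE; edgeR adjusted p = 0.414) came from replicate 2, and it was -0.13 without that library. The cox13 gene was lower in every aal1-pOE library (51.5 to 88.4 CPM) than in evc (95.4 to 104.1 CPM), with a log2 fold change of -0.50 ± 0.24 (SE; edgeR adjusted p = 0.200). This change was -0.31 without aal1-pOE replicate 2 (adjusted p = 0.221). The others, cox5, cox6, cox7, cox9, cox12 and cox14, lay between -0.13 and 0.29.

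Complex V makes ATP in its F1 head, whose catalytic sites lie between the alpha subunits (atp1) and the beta subunits (atp2). None of its 15 genes was called and their median log2 fold change was -0.08, with 0.01 for the 5 genes of the F1 head and -0.13 for the 8 other subunits. The level of atp1 was 315.8, 213.4 and 273.3 CPM in aal1-pOE against 334.7, 341.9 and 340.1 CPM in evc. The groups did not overlap, and the log2 fold change was -0.34 ± 0.25 (SE; edgeR adjusted p = 0.370). Its value without aal1-pOE replicate 2 was -0.18 (adjusted p = 0.405). The level of atp2 was 267.2, 281.9 and 240.4 CPM in aal1-pOE against 208.5, 258.7 and 255.2 CPM in evc, with overlap and a log2 fold change of 0.13 ± 0.23 (SE; edgeR adjusted p = 0.722). The counts of atp1 over atp2 were 1.18, 0.757 and 1.14 in aal1-pOE against 1.61, 1.32 and 1.33 in evc, lower in each aal1-pOE library than in any evc library. This ratio and that of rip1 to cyt1 are 2 of 10 such ratios between genes of the set. Of the 10, 5 did not overlap between aal1-pOE and evc, 3 of them with sdh3 on top. The share without overlap among other gene pairs was not computed, so the count of 5 has no background.

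At the ends of complex V stood atp18 and atp23. The level of atp18, a small membrane subunit, was 6.02, 6.44 and 6.46 CPM in aal1-pOE against 9.11, 8.75 and 7.25 CPM in evc, without overlap, for a log2 fold change of -0.41 ± 0.40 (SE; edgeR adjusted p = 0.511). The peptidase gene atp23 stood at 0.634, 11.3 and 0.788 CPM in aal1-pOE against 1.86, 1.80 and 1.61 CPM in evc. Replicate 2 alone was high while replicates 1 and 3 were below all evc libraries, so that the log2 fold change was 1.32 ± 1.02 (SE; edgeR adjusted p = 0.404) with that library and -1.28 ± 0.51 (SE; adjusted p = 0.126) without it. Both genes that were higher in aal1-pOE without overlap belonged to this complex. The level of atp20, subunit g of the membrane part, was 35.6, 27.0 and 37.4 CPM in aal1-pOE against 20.6, 23.1 and 21.5 CPM in evc (log2 fold change 0.61 ± 0.25 SE; edgeR adjusted p = 0.156). That of atp15, the epsilon subunit, was 7.29, 7.96 and 7.25 CPM in aal1-pOE against 4.72, 4.04 and 4.43 CPM in evc (log2 fold change 0.77 ± 0.43 SE; edgeR adjusted p = 0.268). The other 9 genes of the complex had overlapping groups and values from -0.25 in atp17 to 0.18 in atp5. They were atp3 and atp16 of the central stalk, the peripheral and membrane subunits atp4, atp5, atp7, atp14, atp17 and atp19, and the assembly gene atp25.

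Over all 39 genes the groups did not overlap for 2 that were higher in aal1-pOE (5.13%, beside 18.4% of all genes tested) and for 6 that were lower (15.4%, beside 19.1%). The 6 were sdh1, sdh2, sdh3, cox13, atp1 and atp18. The remaining 31 overlapped.

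**Figure D3:**
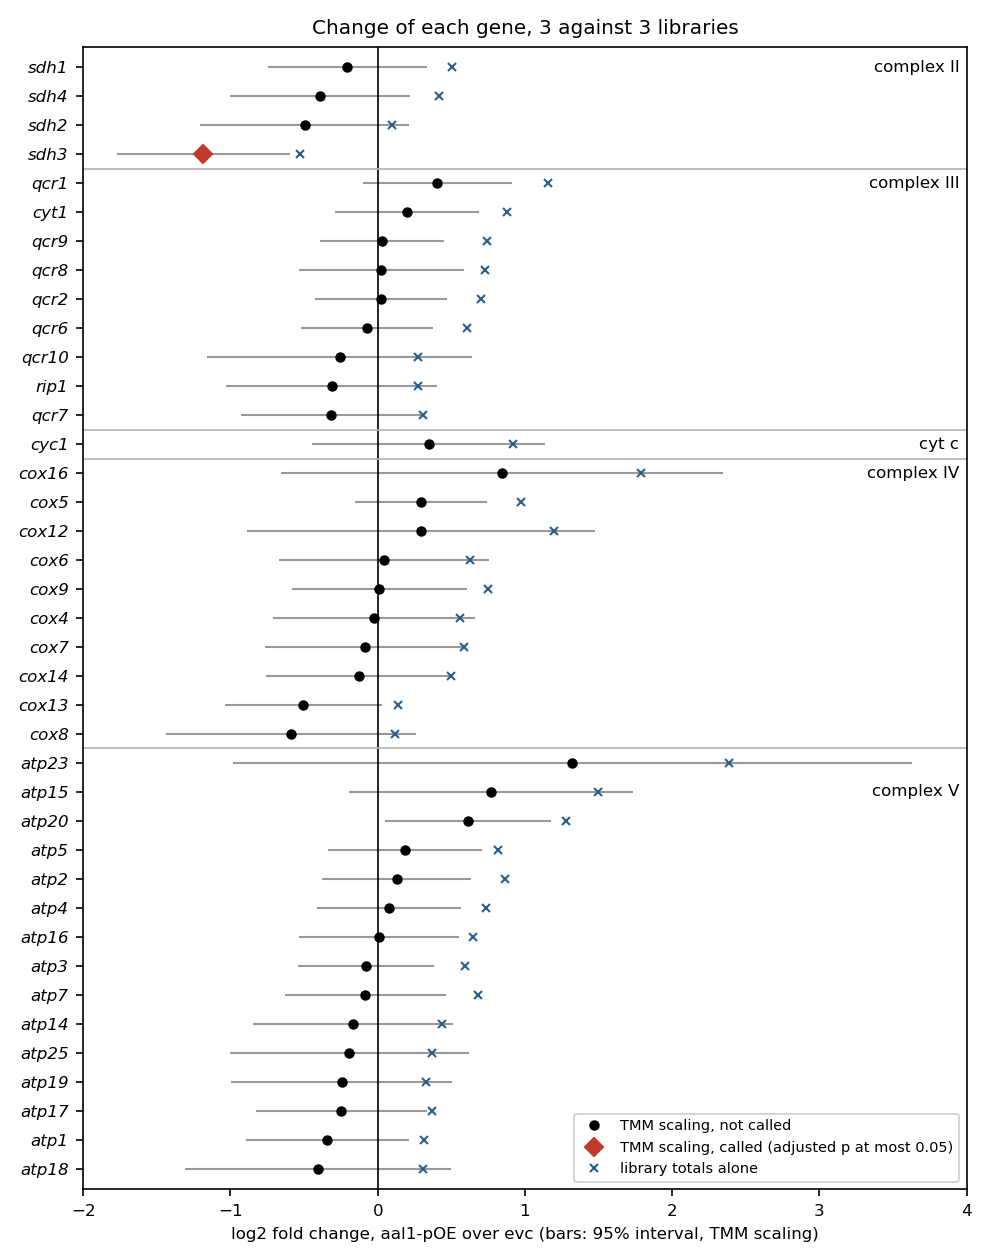
Log2 fold change of each gene, aal1-pOE over evc, with its 95% interval, by complex. Round marks were not called, the diamond (sdh3, -1.19) was called, and crosses give the value with library totals alone. The median was -0.08 with TMM scaling and 0.60 with library totals, and sdh3 is the single gene whose cross lies below 0.

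The sign of the change depended on the scaling for every member below 0 other than sdh3. With library totals alone the median log2 fold change of the 39 genes was 0.60, beside 0.80 over all genes tested, so that the group lay below the median gene under both scalings. Under library totals 5 of the genes rose (12.8%, beside 8.88% of all genes tested) and 0 fell (beside 2.64%). The 5 were atp20 (1.28), cox5 (0.98), cyc1 (0.92), cyt1 (0.88) and atp4 (0.74), with edgeR adjusted p from 0.0444 to 0.0499. Without TMM factors 23 genes were higher in every aal1-pOE library than in any evc library (59.0%, beside 47.2% of all genes tested), 1 was lower (2.56%, beside 6.29%) and 15 overlapped, and the 1 was sdh3.

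Taken as a share of all counts, the 39 genes held 0.512, 0.599 and 0.492% in aal1-pOE against 0.393, 0.369 and 0.349% in evc. The aal1-pOE libraries were higher without overlap, at 0.534 ± 0.0571% against 0.370 ± 0.0220% (SD, n = 3 each). The same held for complex III, cytochrome c, complex IV and complex V, each higher in all 3 aal1-pOE libraries. Complex II was again the exception, with 0.0980, 0.125 and 0.0880% in aal1-pOE against 0.0890, 0.0943 and 0.0920% in evc, which overlapped. These shares follow library totals, under which 47.2% of all genes tested were higher without overlap. Under library totals the median log2 fold change was 0.80 over all genes tested and 0.60 over the 39. They are shares of the reads that remained after rRNA was removed. A rise of these RNAs and a loss of other RNA from the pool cannot be told apart. Nor can less RNA per cell and fewer cells that hold the RNA.

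The second aal1-pOE library was low in many abundant members and high in a few scarce ones. In this replicate 2, 28 of the 39 genes were below the mean of replicates 1 and 3 and 11 above it. It was the lowest of all 6 libraries in 23 genes and the highest in 7. The median log2 difference of replicate 2 from that mean was -0.43 for these genes and 0.08 for all genes tested. It was over 2-fold below the mean in 9 genes, among them qcr10 (-1.71), cyc1 (-1.18), cox4 (-1.14) and rip1 (-1.11), and over 2-fold above in 3, cox12 (1.54), cox16 (1.99) and atp23 (4.00), all of low level. Over the 39 genes the Spearman correlation of this difference with the mean level in evc was -0.47, and over all genes tested it was -0.63. Both are across genes, which share the same 6 libraries, and are given as descriptions. The part of this library in the group means was not tested other than by leaving it out.

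**Figure D4:**
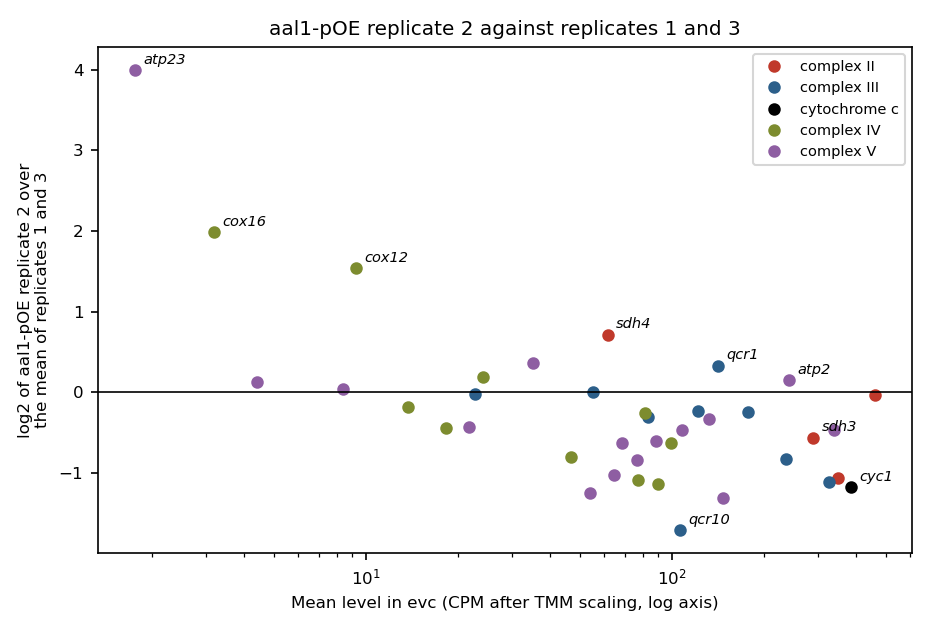
For each of the 39 genes, the log2 ratio of aal1-pOE replicate 2 to the mean of aal1-pOE replicates 1 and 3, against the mean level in evc on a log axis (both in CPM after TMM scaling). Colours give the complex. Genes above about the level of sdh4 mostly lie below 0, and the 3 highest points, atp23, cox16 and cox12, are among the genes of lowest level.

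Without aal1-pOE replicate 2 the edgeR test called 3 of the 39 genes. The sdh3 gene fell (1 of 39, beside 9.09% of all genes tested), and atp20 (log2 fold change 0.76 ± 0.17 SE; adjusted p = 0.0291) and cyc1 (0.66 ± 0.17) rose (2 of 39, beside 4.42%). Leaving out evc replicate 1 as well, an alternative chosen with earlier results of these data known, left 2 libraries a group and 38 genes, since atp23 no longer passed the filter. Then 5 genes rose, cyc1 (0.75), atp20 (0.71), cox6 (0.52), atp5 (0.41) and cox5 (0.38), beside 19.4% of all genes tested. Sdh3 (-1.14) and sdh4 (-0.74) fell, beside 20.2%. In each of these fits all 4 genes of complex II had negative values. The median was 0.05 over the 39 genes without the 1 library and 0.01 over the 38 without both.

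Levels compared between genes per kb of annotated gene span, introns included, placed cyc1 first in evc, at 325.8 ± 49.9 CPM per kb (SD, n = 3), and sdh3 next, at 312.4 ± 51.0. The 2 did not differ beyond their spread. Then came rip1 (265.0 ± 17.2), sdh2 (263.5 ± 14.3), qcr7 (222.6 ± 21.3) and sdh1 (210.7 ± 13.8). Neither rip1 and sdh2 nor qcr7 and sdh1 differed beyond these SDs. Differences between genes within each library were not tested. In aal1-pOE the order was cyc1 (414.3 ± 166.3), rip1 (213.4 ± 80.6) and sdh2 (186.9 ± 69.1), and sdh3 came eighth, at 137.4 ± 31.4. The lowest were the assembly protein gene cox16 (1.40 ± 0.206) and the peptidase gene atp23 (1.47 ± 0.108) in evc. The ATP synthase subunits covered a wide range, from atp2 at 127.1 ± 14.8 to atp15 at 6.80 ± 0.531.

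The protein-coding rows of the mitochondrial genome gave no call over all 6 libraries. These 11 rows are named by identifier only, without saying which encode subunits of the chain. Of them, 8 passed the filter on low counts and 0 were called. The median log2 fold change was -0.33, which was 0.03 without aal1-pOE replicate 2. Without that library and evc replicate 1, 0 rose, and SPMIT.01 (-0.34; edgeR adjusted p = 0.0357) and SPMIT.09 (-1.17; 0.0162) fell. In that fit 20.2% of all genes tested fell. The sum of the 11 rows was 5.49, 3.92 and 4.34% of all counts in aal1-pOE against 5.31, 3.92 and 4.13% in evc, so the groups overlapped. The counts of the 39 nuclear genes over those of the mitochondrial rows were 0.0933, 0.153 and 0.113 in aal1-pOE against 0.0741, 0.0941 and 0.0845 in evc, which overlapped too. The lowest fold change was that of SPMIT.01, with 29870, 13360 and 24700 CPM in aal1-pOE against 41080, 33830 and 35150 CPM in evc (-0.70 ± 0.69 SE; edgeR adjusted p = 0.513). The highest was that of SPMIT.08, with 87.3, 118.5 and 56.6 CPM in aal1-pOE against 45.2, 30.1 and 63.8 CPM in evc (0.92 ± 0.34 SE; edgeR adjusted p = 0.127).

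Of 37 tested genes listed as assembly factors, 1 fell (beside 4.64% of all genes tested) and 0 rose (beside 1.36%). The median log2 fold change was 0.20. In this list 10 genes had an unadjusted p under 0.05 (27.0%, beside 27.2% of all genes tested). Without aal1-pOE replicate 2 the median was 0.07, bcs1 (-1.11; edgeR adjusted p = 0.0126) and cbp4 (-0.78; 0.0338) fell, and cyc2 (0.89; 0.0219) rose. In that fit 9.09% of all genes tested fell and 4.42% rose. With evc replicate 1 left out as well, 7 of the list fell and 4 rose, beside 20.2% and 19.4% of all genes tested. The gene called over all 6 libraries by the edgeR quasi-likelihood test was bcs1. It encodes the ATPase known in budding yeast to place the Rieske protein into complex III. Its level was 21.3, 28.3 and 28.5 CPM in aal1-pOE against 51.1, 51.2 and 60.2 CPM in evc, without overlap, for a log2 fold change of -1.05 ± 0.23 (SE; edgeR adjusted p = 0.0269). With library totals it was -0.32 (adjusted p = 0.515). The cbp4 gene, named for a complex III assembly factor, had the lowest value, at 87.6, 36.9 and 85.8 CPM against 121.1, 162.4 and 169.2 CPM in evc (-1.11 ± 0.33 SE; edgeR adjusted p = 0.0759). Over all 6 libraries it was called by the edgeR likelihood ratio test (adjusted p = 0.0216), the DESeq2 Wald test (0.0278) and edgeR with a replicate block (0.0184). The highest value was that of oxa101, which encodes a translocase of the inner membrane. It stood at 8.45, 23.2 and 9.62 CPM in aal1-pOE against 2.70, 5.16 and 4.63 CPM in evc (1.74 ± 0.53 SE; edgeR adjusted p = 0.0803). The edgeR likelihood ratio test (adjusted p = 0.0244) and the DESeq2 Wald test (adjusted p = 0.0157) called oxa101 over all 6 libraries. The DESeq2 Wald test also called cox18 (1.58; adjusted p = 0.0426).

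The routes that feed the chain had no gene called by the edgeR quasi-likelihood test with TMM scaling over all 6 libraries. A few were called without aal1-pOE replicate 2 or with library totals. The DESeq2 Wald test over all 6 libraries called kgd1 of the TCA cycle (-0.77; adjusted p = 0.0405). Of the 5 other enzymes that pass electrons to it, 0 were called (median -0.22, or 0.13 without that replicate, none with an unadjusted p under 0.05), from ura3, the dihydroorotate dehydrogenase of pyrimidine synthesis (-0.74 ± 0.38 SE; edgeR adjusted p = 0.235), to cir2, which hands over electrons from flavoproteins (0.22 ± 0.31; 0.645). The ura3 gene stood at 326.9, 116.6 and 338.4 CPM in aal1-pOE against 452.5, 435.3 and 420.0 CPM in evc, below all evc libraries in each, and cir2 at 298.8, 211.8 and 297.4 CPM against 330.1, 173.7 and 188.8 CPM. Of 13 genes of ubiquinone synthesis 0 were called, 2 had an unadjusted p under 0.05 and the median was 0.56. In aal1-pOE replicates 1, 2 and 3 the median difference from the evc mean was 0.35, 1.15 and 0.00 on the log2(CPM + 0.5) scale. Without replicate 2 the median fold change was 0.22, and dps1 (0.88; edgeR adjusted p = 0.0207) and coq7 (0.69; 0.0349) rose. They ran from coq8, an atypical kinase of the pathway (-0.41 ± 0.19 SE; edgeR adjusted p = 0.201), to ppt1, which joins the ring to its tail (1.57 ± 0.66; 0.165), and ppt1 stood at 3.38, 12.2 and 4.41 CPM in aal1-pOE against 1.35, 2.02 and 3.42 CPM in evc. Of 13 genes of the TCA cycle, the source of succinate and NADH, 0 were called, 3 had an unadjusted p under 0.05 and the median was -0.34. Without aal1-pOE replicate 2 the median was -0.22, and dld1 (-1.06; edgeR adjusted p = 0.0338) and kgd1 (-0.54; 0.0482) fell, while with library totals idh2 (1.04; 0.0474) and mdh1 (1.02; 0.0363) rose. The lowest was dld1 (dihydrolipoamide dehydrogenase), at 89.2, 142.9 and 88.4 CPM against 128.7, 233.6 and 202.4 CPM in evc (-0.81 ± 0.30 SE; edgeR adjusted p = 0.122). The highest was lsc2, a subunit of the succinate-CoA ligase that makes succinate (1.0 ± 0.43 SE; edgeR adjusted p = 0.167). It stood at 16.1, 47.8 and 19.9 CPM in aal1-pOE against 12.7, 15.9 and 13.5 CPM in evc. Over all genes tested 4.42% rose and 9.09% fell without aal1-pOE replicate 2, and 8.88% rose with library totals. Without aal1-pOE replicate 2 and evc replicate 1, 19.4% rose and 20.2% fell. In that fit 2 of the other electron-entry enzymes rose and 1 fell. For ubiquinone synthesis 2 rose and 1 fell, and for the TCA cycle 3 rose and 6 fell.

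Over all 6 libraries with TMM scaling, no gene of the CCAAT-binding Php complex was called. Of php2, php3, php4 and php5, 0 passed the test and 0 had an unadjusted p under 0.05. With library totals php2 (1.11; edgeR adjusted p = 0.0472) and php5 (0.84; 0.0418) rose. Under that scaling 8.88% of all genes tested rose and the median gene stood at 0.80. With TMM scaling but without aal1-pOE replicate 2 and evc replicate 1, php2 (0.97; edgeR adjusted p = 0.00213), php4 (0.45; 0.0335) and php5 (0.36; 0.0226) rose. In that fit 19.4% of all genes tested rose. Over all 6 libraries the TMM values ran from -0.07 ± 0.26 (SE; edgeR adjusted p = 0.866) in php3 to 0.52 ± 0.32 (0.308) in php2. The level of php2 was 155.4, 82.9 and 161.7 CPM in aal1-pOE against 118.1, 64.2 and 97.0 CPM in evc, which overlapped.

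**Figure D5:**
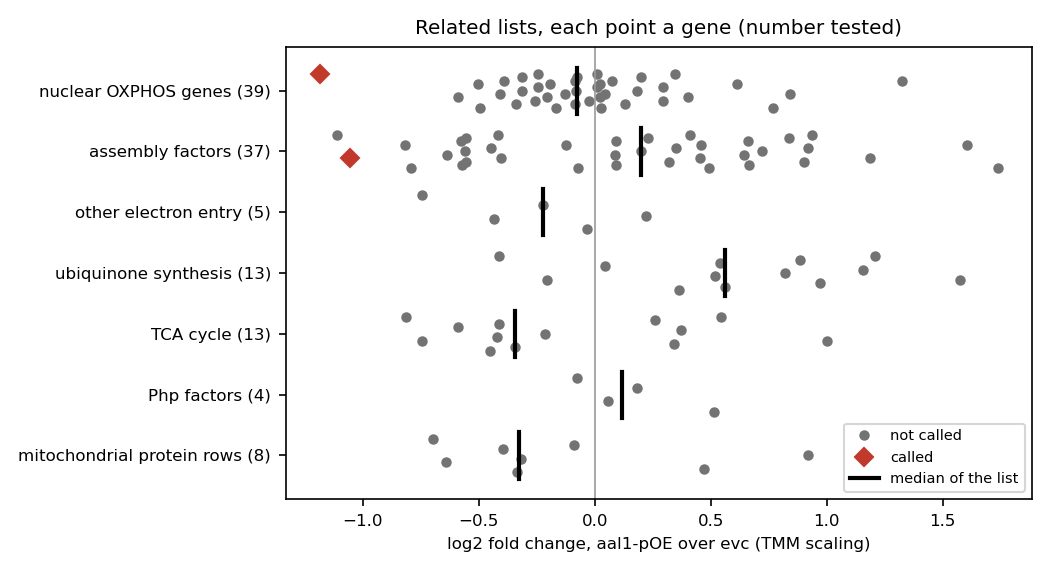
Log2 fold change (aal1-pOE over evc, TMM scaling) of each tested gene in the 39 nuclear oxidative phosphorylation genes and in 6 related lists, with the number tested in brackets. Vertical bars are medians and diamonds are called genes, sdh3 at -1.19 and bcs1 at -1.05. Points of the 39 genes crowd near 0 (median -0.08), and those of the assembly factors (0.20) and of ubiquinone synthesis (0.56) spread more widely.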

How the data were processed

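RNA was sequenced from 6 cultures of Schizosaccharomyces pombe, 3 aal1-pOE and 3 evc, on day 6 of chronological ageing. The sample labels call the replicates biological. The authors removed rRNA with Ribo-Zero, made strand-specific libraries, mapped reads onto the PomBase genome (STAR 2.6.1a) and counted them by gene and strand (HTSeq 0.12.3, reverse). The sources used here do not name the build. The deposited values were raw whole-number counts per gene, with no normalisation or pooling, and each library had 1 column. Reads over both of 2 overlapping genes of a strand are left out by HTSeq by default. This concerns the ends of 5 members, sdh3, qcr2, qcr8, cox5 and cyc1. Of 6952 rows, 6805 matched RefSeq (ASM294v3) by locus tag for names, products, coordinates and upstream sequence. The upstream window of 1 member is not reported here.

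Counts were tested with edgeR 4.0.16 in R 4.3.3, following the study's design. The 5823 genes with more than 1 CPM in 3 or more libraries were kept, TMM factors computed, and strain fitted in a quasi-likelihood model against evc. P-values were adjusted over all tested genes (Benjamini-Hochberg), and calls made at 0.05. Unless named otherwise, adjusted p-values come from this test. SE is the size of the log2 fold change divided by the root of its F statistic. The script was tested on simulated data. Library totals of 5839863 to 13164975 counts set the precision. Alternatives were DESeq2 1.42.0 size factors, library totals, TMM without ribosomal protein genes, leaving out mitochondrial rows, 2 other filters, the likelihood ratio test, the DESeq2 Wald test, limma-voom (limma 3.58.1), a replicate block, and leaving out libraries.

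The members and the related lists were chosen with earlier results of these data known. Values in each library were given for called members, for the lowest and highest fold change in each complex, and for sdh1, sdh2, rip1, cyt1, cyc1, cox4, atp1 and atp2. Of the related lists, called genes and the 2 extremes were named. Other members and all ratios were picked after their values were seen.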

Additional observations from a re-analysis of the deposited data

How the results depend on the processing

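The count of 1 gene that fell and 0 that rose was the same with DESeq2 size factors, TMM factors without ribosomal protein genes, mitochondrial rows left out, both other filters, the edgeR likelihood ratio test, the DESeq2 Wald test and limma-voom. With library totals alone 0 fell, 5 rose and the median log2 fold change was 0.60. Leaving out each library in turn gave 0 to 1 that fell, 0 to 2 that rose and medians from -0.14 to 0.05. Without aal1-pOE replicate 2 and evc replicate 1, 2 fell and 5 rose. Signs turned with library totals for sdh1 (0.51), sdh2 (0.10), qcr7 (0.31), rip1 (0.27), cox4 (0.56), cox8 (0.11), atp1 (0.32), atp18 (0.31), php3 (0.57), dld1 (0.00) and coq8 (0.31), where the scaling itself raised the median gene. They also turned for cox4 with a filter of 10 CPM (0.01) and, when 1 library or both of those libraries were left out, for rip1 (-0.49 to 0.01), cox16 (-0.13 to 1.23), cox4 (-0.27 to 0.34), atp2 (-0.01 to 0.19), atp23 (-1.28 to 1.84) and php3 (-0.19 to 0.24). The cause was not tested for these. Libraries with the same replicate number did not deviate together (correlations of 0.033, 0.010 and 0.007, under the 0.1 taken as pairing), and a replicate block gave 1 that fell, 0 that rose, a median of -0.09 and -1.20 for sdh3. Depth limits atp23 and cox16 most, the members of lowest level.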

Other observations

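Among the assembly factors, cyc2, annotated as the protein that links heme to cytochrome c, stood next to the threshold. Its level was 37.4, 43.7 and 42.7 CPM in aal1-pOE against 20.8, 19.97 and 24.8 CPM in evc, without overlap, and its log2 fold change was 0.92 ± 0.23 (SE; edgeR adjusted p = 0.0501). The gene passed in 6 of the 17 alternatives. With library totals alone its value was 1.65 (edgeR adjusted p = 0.0419), and with a filter of 10 CPM it was 0.99 (edgeR adjusted p = 0.0403). Over all 6 libraries the edgeR likelihood ratio test (adjusted p = 0.0151) and the DESeq2 Wald test (adjusted p = 0.0127) called it too. The gene was picked after its values were seen.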
